A study of Homo sapiens with 9 samples.

Results

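The expression of p53 pathway target genes was examined in H2030 cells after 2 siRNA knockdowns of ENAH, the gene of the actin regulator hMENA. The gene group was a fixed list of 31 symbols, taken by name from a table of 29972 genes. All 31 were found, and 29 of them were among the 13498 genes expressed highly enough to be tested. H2030 is an established line of human lung adenocarcinoma cells, a non-small cell cancer. Cells of the control group received the ON-TARGETplus non-targeting pool. The siMENA11a group received a mix of 3 siRNAs against exon 11a of ENAH, the exon that marks the hMENA11a isoform. The siMENA group received the siGENOME SMARTpool, which is directed at every ENAH isoform. All 3 groups had the same cell line, the same lipid transfection reagent and 20 nmol/L siRNA, with 3 libraries in each group. The non-targeting pool and the siMENA pool thus belong to different reagent lines, and the time from transfection to harvest is not given in the sources used here. Nothing in the labels ties the libraries of a group to separate cultures, so the p-values given here reflect only the spread between libraries, which may be technical. The study's question concerns the tumour cell programmes that respond to loss of hMENA11a, interferon signalling among them.

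p53 is a transcription factor that accumulates after DNA damage and other stress and binds a pair of adjoining half-sites near its target genes. Its targets stop the cell cycle (CDKN1A), start mitochondrial apoptosis (BAX, PMAIP1, BBC3), place death receptors on the cell surface (FAS, TNFRSF10B), repair DNA (XPC, DDB2) and adjust metabolism (SESN1). MDM2, itself a target, closes a negative loop by marking p53 for degradation, and MDM4 is its partner. Several of the targets also answer to other transcription factors.

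TPM (transcript abundance per length, as a share of a fixed total) of each library were divided by that library's size factor, and the result is called scaled TPM below. The factors lay between 0.995 and 1.04 for control, between 0.886 and 0.973 for siMENA11a, and between 1.06 and 1.09 for siMENA. Since TPM carries no read totals, library depth is unknown. The RN7SL RNAs took 39.7% to 41.1% of all TPM in the control libraries, 44.3% to 45.2% with siMENA11a and 39.6% to 40.6% with siMENA. ENAH summed over isoforms was 43.2 to 44.7 scaled TPM in the control libraries, 46.7 to 48.7 with siMENA11a and 6.89 to 7.48 with siMENA. Because exon 11a has no value of its own at gene level, this tests the siMENA label alone. Of 8 epithelial and lung adenocarcinoma markers, 4 (KRT7, KRT8, KRT18 and EPCAM) had a mean over 0.5, while CDH1, KRT19, NKX2-1 and NAPSA stayed under it. Of 6 leukocyte markers, 2 (CD68 and CD14) had a mean over 0.5, and CD3E was at 0 in every library. The leukocyte sum was 97.4 to 105 in the control libraries, 125 to 131 with siMENA11a and 41.1 to 49.5 with siMENA. Of 8 fibroblast and endothelial markers, 2 (COL1A1 and CDH5) had a mean over 0.5, with sums of 8.17 to 9.15, 7.39 to 7.62 and 15.1 to 16.9. These sums move with the groups, and their part in the results was not tested.

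In control cells the p53 targets spanned a wide range of levels. TP53I3, a quinone oxidoreductase, had the highest level (69.0 ± 9.82 scaled TPM, SD, n = 3), followed by the pore-forming protein BAX (54.2 ± 1.48), the membrane protein PERP (52.9 ± 1.44) and CDKN1A (45.5 ± 1.59). TPM is a level per transcript length, so these genes can be ranked. BAX and PERP overlapped between libraries, whereas TP53I3 lay above BAX and PERP above CDKN1A in every control library. At the other end stood BTG2 at 1.80 ± 0.208, PLK3 at 1.74 ± 0.154 and SESN1 at 1.38 ± 0.196. Of the 28 neighbouring pairs among the 29 tested targets, 18 overlapped in the control libraries. Both targets that missed the mean of 0.5 scaled TPM act in apoptosis. TP53INP1 was at 0.382 to 0.576 in the 9 libraries, and PHLDA3, a repressor of Akt signalling, was listed at 0 in 7 libraries and at 0.0411 in siMENA11a library 3 and 0.0367 in siMENA library 3. The coefficient of variation over the control libraries ran from 1.99% for DDB2 to 22.7% for GADD45A, with a median of 8.47%.

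**Figure D1:**
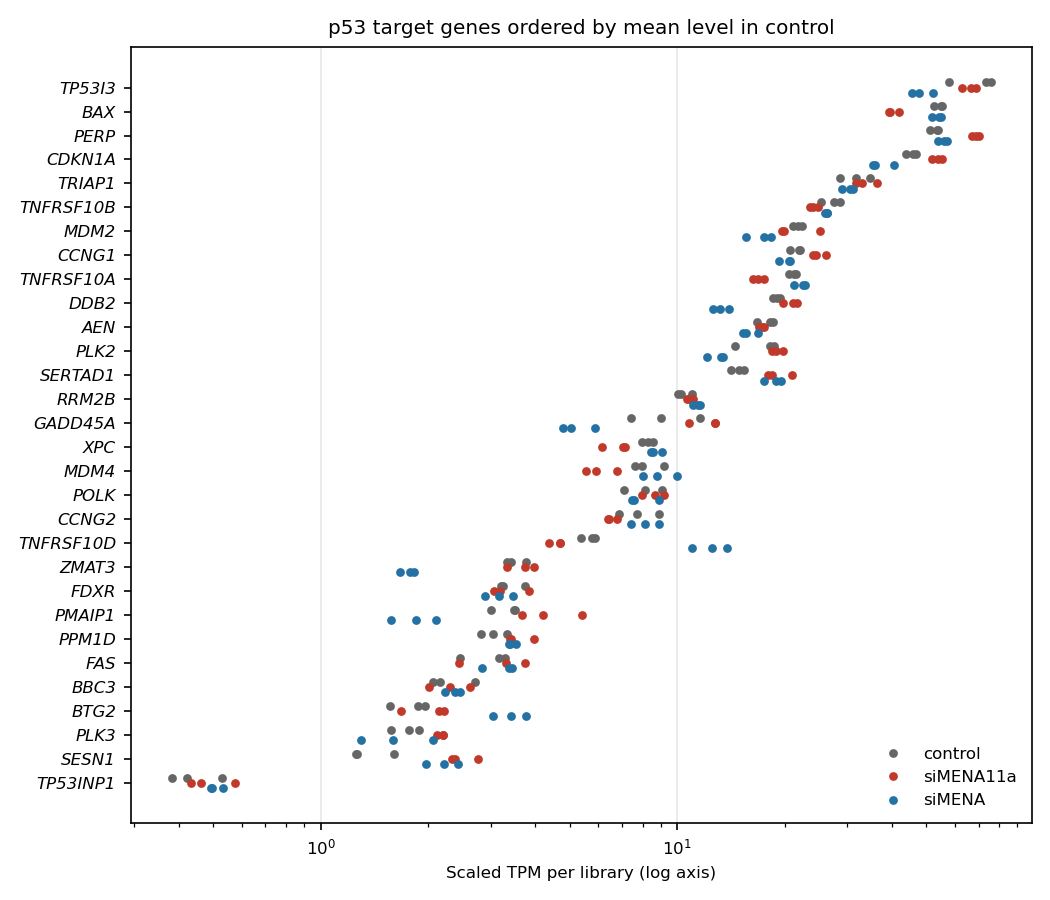
Scaled TPM (log axis) of 30 p53 targets in each of the 9 libraries, ordered by the control mean; points are libraries and colours are groups, and PHLDA3, at 0 in control, is left out. TP53I3 stands highest and TP53INP1 lowest, with most neighbours in the order overlapping.

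Promoter sequences of RefSeq (build GRCh38.p14, from 250 bases before to 50 bases after each listed start) were matched for 24 of the 31 targets. They were searched on both strands for the p53 half-site, a palindromic motif of 10 letters. GADD45A, PHLDA3, TP53INP1, TNFRSF10A, TNFRSF10B, TNFRSF10D and RRM2B had no entry. A half-site lay in the promoter of 6 of the 24 targets (25%) and of 2202 of all 27305 genes in the table (8.06%). A full site, taken as 2 half-sites at most 13 bases apart, was found for DDB2 alone among the targets (4.17%) and for 10 of all 27305 genes (0.0366%). The windows are printed because they show where the motif that defines this pathway stands in the genes described next. Capitals mark the half-sites, and each window is written 5′ to 3′ on the strand of its gene.
AEN: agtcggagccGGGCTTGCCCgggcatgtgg
DDB2: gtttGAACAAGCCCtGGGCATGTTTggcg
FAS: cggaactcctGGACAAGCCCtgacaagcca
FDXR: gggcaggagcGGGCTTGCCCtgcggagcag
PLK2: tggcgggacaAGACTTGCTTcccggccacg
SESN1: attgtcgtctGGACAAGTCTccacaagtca
The AEN window is chr15:88621296-88621325 on the plus strand, with its half-site at bases -34 to -25 from the start. The DDB2 window is chr11:47214975-47215003 on the plus strand, and its pair, with a spacer of 1 base, covers bases 6 to 26 after the start. FAS lies at chr10:88991299-88991328 (plus strand), with the half-site at -122 to -113. FDXR lies at chr17:74872986-74873015 (minus strand), with the half-site at -11 to -2. PLK2 lies at chr5:58460199-58460228 (minus strand), with the half-site at -132 to -123. SESN1 lies at chr6:109009018-109009047 (minus strand), with the half-site at -49 to -40. DDB2, FAS, FDXR and SESN1 have several starts in the table, and the motif stood at 1 of them. Sequence beyond 250 bases before and 50 bases after each start was not searched, so a target without a match may hold a site elsewhere. A match is a description of the letters in the window, and p53 binding was not measured.

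In siMENA11a the p53 targets differed from control in both directions and by small amounts. Against control, 7 of the 29 tested targets were higher (SESN1, GADD45A, PERP, SERTAD1, CDKN1A, CCNG1 and DDB2) and 6 were lower (BAX, MDM4, TNFRSF10A, TNFRSF10D, XPC and TNFRSF10B) at an adjusted p under 0.05. In bulk RNA, fewer cells expressing a gene and less RNA per cell cannot be told apart. The called targets are 24.1% and 20.7% of the targets, and among all 13498 genes 27.9% were called higher and 27.7% lower. A call of at least 1.5-fold was reached by SESN1 alone (3.45%), upwards, and by 0 targets downwards, where all genes had 5.73% higher and 6.03% lower. The log2 fold changes of the targets ran from -0.42 to 0.68 with a median of 0.07, and the median of all genes was 0.01. Their median size without sign was 0.20, against 0.23 for all genes. In the shares of targets called, this comparison lay near or below the background. On TPM without size factors, where the median of all genes shifts to -0.11 and the split of all genes to 14.6% higher and 36.4% lower, 3 targets were called higher and 8 lower. With small and structured RNAs left out of the total, that median was 0.09, the split 34.1% higher and 19.9% lower, and 11 targets were called higher and 4 lower, so the balance of rises and falls depends on the scaling.

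In siMENA, p53 targets were both lower and higher than in control, and the balance depended on the scaling. Against control, 4 of 29 were higher (TNFRSF10D, BTG2, SESN1 and SERTAD1) and 9 were lower (ZMAT3, GADD45A, PMAIP1, DDB2, TP53I3, PLK2, MDM2, CDKN1A and AEN). The shares were 13.8% and 31.0%, beside 23.7% higher and 25.8% lower among all genes. At least 1.5-fold higher were TNFRSF10D and BTG2 (6.90%, beside 3.24% of all genes), and at least 1.5-fold lower were ZMAT3, GADD45A and PMAIP1 (10.3%, beside 5.72%). The range of the log2 fold changes was -0.83 to 1.06 and their median -0.02, close to that of all genes (0.01). Without size factors the median of all genes was 0.09 with 29.5% of genes higher and 17.1% lower, and 7 targets were called higher and 7 lower. With small and structured RNAs left out, these values were 0.11, 32.8% and 16.8%, and 8 targets were called higher and 8 lower.

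The knockdowns differed from each other in 18 of the 29 targets. In siMENA11a, 11 were higher than in siMENA and 7 lower (37.9% and 24.1%), where 29.5% of all genes were higher and 29.2% lower. At least 1.5-fold higher in siMENA11a were GADD45A, PMAIP1, ZMAT3 and DDB2 (13.8%, beside 8.90% of all genes), and at least 1.5-fold lower were TNFRSF10D and BTG2 (6.90%, beside 6.82%). The count of 2 lower targets fell to 1 without siMENA11a library 2 or siMENA library 1, rose to 3 without siMENA11a library 3 or siMENA library 2, and was 5 without size factors. The median size without sign was 0.32 for the targets and 0.25 for all genes. Both comparisons with control use the same 3 control libraries, so their values are set side by side and no likeness between them is read. Without size factors the median of all genes was -0.20 with 15.1% of genes higher and 46.9% lower, and 6 targets were called higher and 10 lower, the reverse balance. Each difference is therefore given relative to the other genes.

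**Figure D2:**
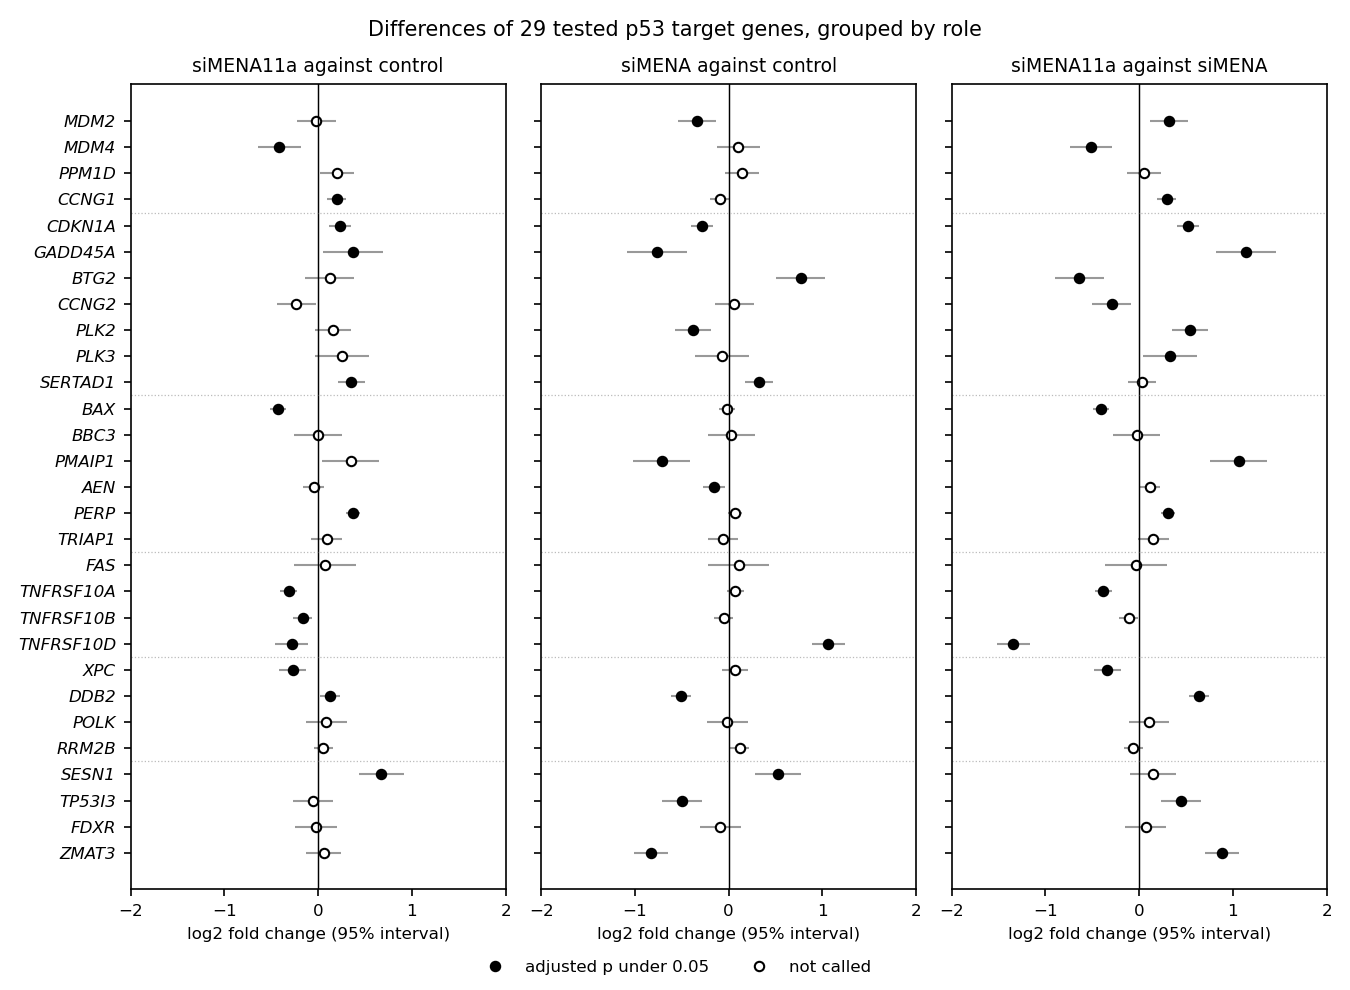
Log2 fold change with its 95% interval for the 29 tested p53 targets in 3 comparisons, ordered by role; filled points passed an adjusted p of 0.05, and dotted lines separate the roles. SESN1 is the highest point in siMENA11a against control, while TNFRSF10D and ZMAT3 are the extremes in siMENA against control.

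Of the 4 genes that feed back on p53, 1 rose and 1 fell in siMENA11a, and 1 fell in siMENA. Beside this and the next counts by role, 27.9% of all genes were higher and 27.7% lower in siMENA11a. In siMENA these shares were 23.7% and 25.8%. MDM2, the ubiquitin ligase of p53, was at 21.2, 22.4 and 21.8 scaled TPM in control, 19.7, 20.0 and 25.2 in siMENA11a, and 15.6, 17.6 and 18.4 in siMENA. All siMENA libraries lay below all others, and the siMENA11a libraries spread around the control values because library 3 was high. The log2 fold change was -0.34 ± 0.092 in siMENA (SE, adjusted p = 0.0131), and -0.02 in siMENA11a with a 95% interval of -0.23 to 0.19. Without size factors the fall in siMENA missed the threshold (-0.26, adjusted p = 0.0973). Between the knockdowns MDM2 differed by 0.32 (adjusted p = 0.0139), by 0.21 without siMENA11a library 3, and by 0.25 without siMENA library 1, where the adjusted p was 0.0525. Without size factors that difference was 0.11 (adjusted p = 0.450). MDM4, the MDM2 partner that masks the activation domain of p53, was lower in siMENA11a and not called in siMENA against control (0.10, adjusted p = 0.421). Its values were 9.20, 7.63 and 7.95 in control, 5.94, 5.54 and 6.76 in siMENA11a, and 10.0, 8.0 and 8.76 in siMENA. The siMENA11a libraries were below every other library, with a log2 fold change of -0.41 ± 0.10 against control (adjusted p = 0.00625) and -0.52 against siMENA (adjusted p = 0.00154). CCNG1, which guides a phosphatase to MDM2, rose from 21.6 ± 0.752 to 24.9 ± 1.11 in siMENA11a (0.20, adjusted p = 0.00475) and was at 20.2 ± 0.780 in siMENA (-0.09, adjusted p = 0.120). The rise of CCNG1 was not called without size factors (0.07, adjusted p = 0.422). PPM1D, a phosphatase that shuts off damage signals, had means of 3.06, 3.60 and 3.44 and was not called in any comparison.

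Of 7 arrest genes, 3 were higher and 0 lower in siMENA11a, 2 were higher and 3 lower in siMENA, and all but SERTAD1 differed between the knockdowns. Among all genes 27.9% were higher and 27.7% lower in siMENA11a, and 23.7% and 25.8% in siMENA. Between the knockdowns 29.5% of all genes were higher in siMENA11a and 29.2% lower. CDKN1A encodes p21, the inhibitor of cyclin-dependent kinases that carries the p53 arrest in G1. It was at 45.9, 46.8 and 43.7 scaled TPM in control, 55.4, 53.7 and 51.8 in siMENA11a, and 35.9, 35.5 and 40.5 in siMENA. The 3 groups did not overlap, with siMENA11a highest and siMENA lowest. The log2 fold changes were 0.24 ± 0.053 in siMENA11a (adjusted p = 0.00424) and -0.29 in siMENA (adjusted p = 0.00172), and the knockdowns differed by 0.52 (adjusted p = 2.3e-05). The rise in siMENA11a depended on the scaling, since without size factors it was 0.10 (adjusted p = 0.204), while the difference between the knockdowns was then 0.31 (adjusted p = 0.00183). The fall in siMENA was -0.19 (adjusted p = 0.0124) with small and structured RNAs left out.

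GADD45A, a stress protein that binds PCNA and p21, showed the same order with larger steps. Its values were 11.6, 9.0 and 7.40 in control, 10.8, 12.8 and 12.7 in siMENA11a, and 4.79, 5.89 and 5.02 in siMENA. Every siMENA library was below every control library, while siMENA11a and control overlapped through control library 1. The log2 fold change was -0.76 ± 0.14 in siMENA (adjusted p = 0.00179), and the level in siMENA11a was 2.20-fold that in siMENA (1.14, adjusted p = 9.35e-05). The call in siMENA11a against control was marginal (0.38, adjusted p = 0.0475). It was lost when any of 6 libraries was left out (control 2 or 3, siMENA11a 2 or 3, siMENA 1 or 3; adjusted p 0.0558 to 0.158), and without control library 3 the value was 0.23. Without size factors it was 0.25 (adjusted p = 0.184). PLK2, a polo-like kinase of the stress response, was at 18.6, 18.2 and 14.5 in control, 18.4, 19.0 and 19.8 in siMENA11a, and 12.1, 13.4 and 13.3 in siMENA. It fell in siMENA (-0.38 ± 0.086, adjusted p = 0.00488), with no overlap, and was not called in siMENA11a (0.16, adjusted p = 0.147). The knockdowns differed by 0.54 in PLK2 (adjusted p = 0.000449), and by 0.33 without size factors.

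BTG2, an antiproliferative protein that recruits the mRNA deadenylase complex, had the opposite pattern in siMENA. It was at 1.87, 1.57 and 1.96 in control, 2.21, 1.68 and 2.15 in siMENA11a, and 3.77, 3.42 and 3.05 in siMENA. The siMENA libraries all stood above the rest, a 1.70-fold rise (log2 0.77 ± 0.12, adjusted p = 0.000493), whereas siMENA11a overlapped control (0.13, adjusted p = 0.384). SERTAD1, a CDK4-binding regulator of the G1 to S step, rose in both knockdowns. It was at 15.4, 14.9 and 14.2 in control, 21.0, 18.4 and 18.0 in siMENA11a, and 19.6, 17.5 and 18.9 in siMENA. All knockdown libraries exceeded all control libraries, with log2 fold changes of 0.35 ± 0.065 (adjusted p = 0.0013) and 0.32 (adjusted p = 0.0027). The interval of the difference in SERTAD1 between the knockdowns was -0.11 to 0.18. Without size factors SERTAD1 was lower in siMENA11a than in siMENA (-0.18, adjusted p = 0.0264), and its rise over control was 0.22. CCNG2, a cyclin linked to arrest, was called between the knockdowns (6.54 ± 0.201 in siMENA11a, 8.15 ± 0.734 in siMENA, -0.29, adjusted p = 0.0198). That call was lost without siMENA11a library 1 or 2 or siMENA library 2 (adjusted p 0.0552 to 0.0748), and without size factors the value was -0.50. In siMENA11a against control CCNG2 was at -0.23 (adjusted p = 0.0539) and passed the threshold under 8 of the alternatives (without size factors -0.36, adjusted p = 0.0138). PLK3 was also called between the knockdowns, at 2.18 ± 0.0509 in siMENA11a and 1.65 ± 0.387 in siMENA (0.33, adjusted p = 0.0485). Leaving out any library but siMENA 1 ended the PLK3 call, and without siMENA library 2 the value was 0.21. The call also ended under each of the 3 other scalings (0.16 without size factors, adjusted p = 0.316), with no filter on low genes and in a fit of the 2 groups alone.

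**Figure D3:**
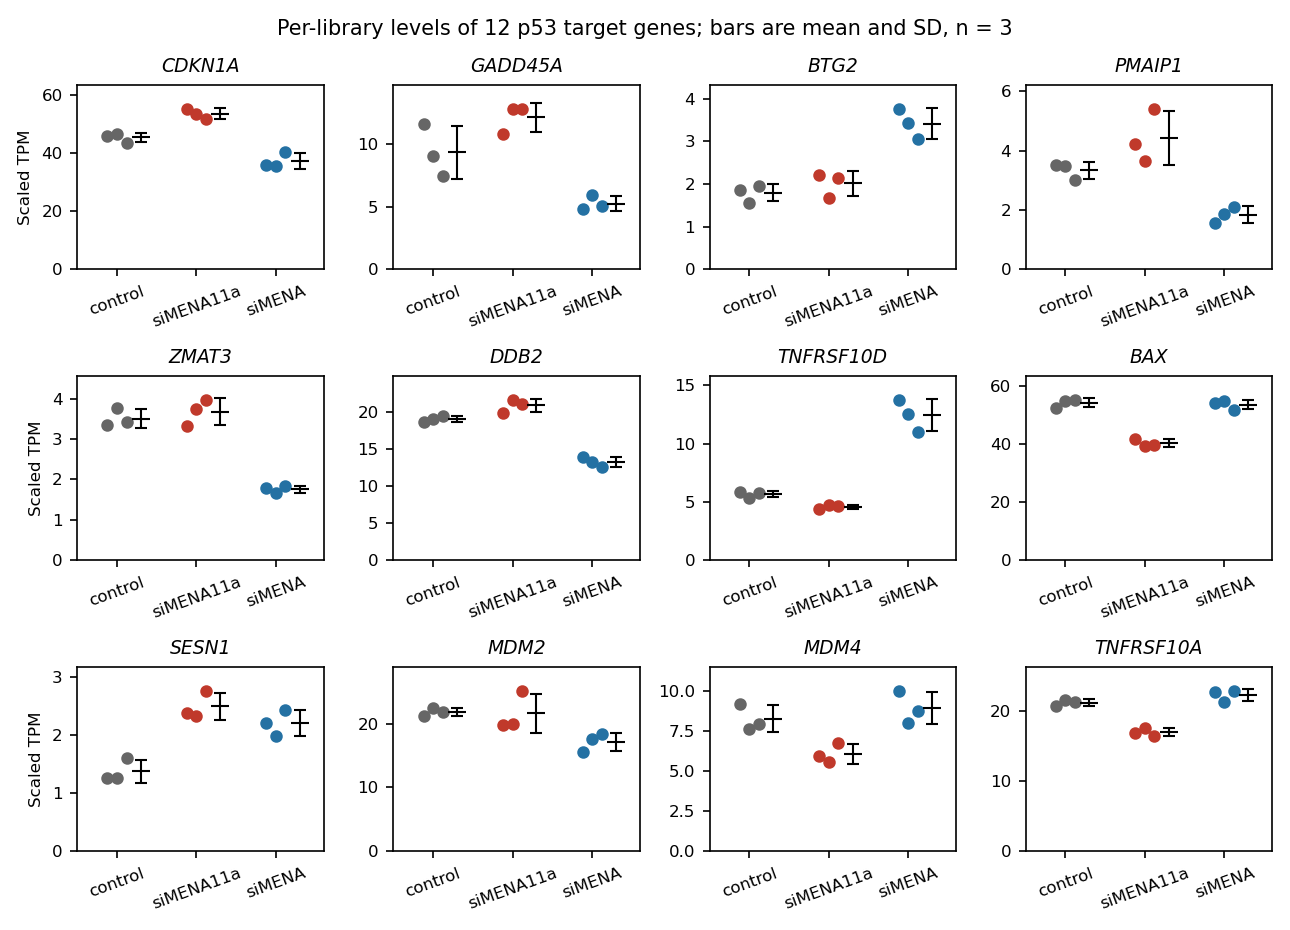
Scaled TPM of 12 p53 targets in each library; points are libraries, bars are means with SD (n = 3) and each axis starts at 0. CDKN1A separates all 3 groups, TNFRSF10D and BTG2 are high in siMENA alone, and BAX and TNFRSF10A are low in siMENA11a.

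Of 8 genes of intracellular apoptosis, 6 were tested, of which BAX fell and PERP rose in siMENA11a, and PMAIP1 and AEN fell in siMENA. The shares of all genes were 27.9% higher and 27.7% lower in siMENA11a, and 25.8% lower in siMENA. BAX forms the pore that releases cytochrome c from mitochondria. It was at 52.5, 54.8 and 55.3 scaled TPM in control, 41.8, 39.4 and 39.6 in siMENA11a, and 54.0, 54.9 and 51.8 in siMENA. The siMENA11a libraries lay well below all others, with a log2 fold change of -0.42 ± 0.037 (adjusted p = 1.22e-05). In siMENA the BAX difference from control was -0.02 with an interval of -0.10 to 0.07, and the knockdowns differed by -0.41 (adjusted p = 1.08e-05), or -0.62 without size factors. PMAIP1 encodes NOXA, which neutralises MCL1. Its values were 3.51, 3.5 and 3.00 in control, 4.21, 3.66 and 5.42 in siMENA11a, and 1.57, 1.85 and 2.11 in siMENA. The 3 groups did not overlap, and the fall in siMENA was -0.71 ± 0.14 (adjusted p = 0.00193). The siMENA11a value against control was 0.35 and just missed the threshold (adjusted p = 0.0521), which it passed under 5 of the alternatives (adjusted p 0.0199 to 0.0492). Between the knockdowns PMAIP1 differed 2.09-fold (1.06, adjusted p = 0.000105).

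PERP, a tetraspan protein of cell junctions that takes part in p53-dependent death, rose in siMENA11a. It was at 51.3, 53.5 and 54.0 in control, 67.2, 70.0 and 69.1 in siMENA11a, and 53.7, 57.0 and 55.9 in siMENA. All siMENA11a libraries exceeded all others (0.37 ± 0.034, adjusted p = 1.63e-05), and without size factors the rise was 0.24 (adjusted p = 0.00447). In siMENA the PERP value was 0.07 (adjusted p = 0.130), which passed the threshold under each of the 3 other scalings (0.15 to 0.17). The 0.31 between the knockdowns (adjusted p = 4.36e-05) was 0.09 without size factors and then not called (adjusted p = 0.190). AEN, a nuclease that degrades DNA in dying cells, was called lower in siMENA (-0.16, adjusted p = 0.0268) at 16.8, 15.6 and 15.3 against 18.2, 18.5 and 16.7 in control. These libraries overlap, and the call ended under each of the 3 other scalings and without control library 1 or 2 or siMENA library 2 or 3 (adjusted p 0.0759 to 0.0934). BBC3, which encodes PUMA, was at 2.06 to 2.72 in the control libraries, 2.01 to 2.63 with siMENA11a and 2.24 to 2.45 with siMENA. Neither BBC3 nor TRIAP1, a small inhibitor of the caspase cascade, was called in any comparison.

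Of the 4 death and decoy receptors, 3 fell in siMENA11a and 0 rose, while 1 rose in siMENA and 0 fell, where 27.7% of all genes fell in siMENA11a and 23.7% rose in siMENA. TNFRSF10A and TNFRSF10B are the death receptors of the ligand TRAIL, and TNFRSF10D is a decoy receptor that binds TRAIL without a complete death domain. TNFRSF10D was at 5.88, 5.37 and 5.78 scaled TPM in control, 4.37, 4.70 and 4.69 in siMENA11a, and 13.8, 12.5 and 11.0 in siMENA. The groups did not overlap, and the siMENA libraries stood far above the rest. The rise in siMENA was 2.09-fold (log2 1.06 ± 0.078, adjusted p = 5.58e-06), and siMENA11a was lower than siMENA by 2.53-fold (-1.34, adjusted p = 6.09e-07). In siMENA11a against control TNFRSF10D fell by 0.28 on the log2 scale (adjusted p = 0.0124), and with small and structured RNAs left out this was -0.22 (adjusted p = 0.0531).

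TNFRSF10A was at 20.6, 21.5 and 21.2 in control, 16.9, 17.5 and 16.4 in siMENA11a, and 22.6, 21.2 and 22.8 in siMENA. The siMENA11a libraries were the lowest 3 (-0.31 ± 0.041, adjusted p = 0.000164), and siMENA overlapped control (0.07, adjusted p = 0.185). Against siMENA the TNFRSF10A difference was -0.38 (adjusted p = 3.19e-05), and -0.60 without size factors. TNFRSF10B was at 28.6, 27.5 and 25.4 in control, 23.6, 24.0 and 24.8 in siMENA11a, and 25.9, 26.4 and 26.3 in siMENA. It too was lowest in siMENA11a, by a smaller step (-0.16 ± 0.045, adjusted p = 0.0118), which was -0.29 without size factors and -0.09 (adjusted p = 0.166) with small and structured RNAs left out. Against siMENA the TNFRSF10B difference was -0.11 and just missed the threshold (adjusted p = 0.0530). It passed under some of the alternatives (without size factors -0.33, adjusted p = 0.00138). FAS, the receptor of FAS ligand, was at 3.29, 2.46 and 3.17 in control, 2.45, 3.75 and 3.31 in siMENA11a, and 3.45, 2.84 and 3.38 in siMENA. All 3 groups overlapped in FAS, and the adjusted p was 0.699 and 0.580 against control. The TNFRSF10 genes resemble each other in sequence, and how shared reads were divided among them is not given in the sources used here, so their split is uncertain.

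Of the 4 genes of DNA repair and nucleotide supply, DDB2 was higher and XPC lower in siMENA11a, and DDB2 was lower in siMENA. The shares of all genes were 27.9% higher and 27.7% lower in siMENA11a, and 25.8% lower in siMENA. DDB2 recognises ultraviolet lesions in chromatin and hands them to XPC for nucleotide excision repair. DDB2 was at 18.6, 19.0 and 19.4 scaled TPM in control, 19.8, 21.6 and 21.1 in siMENA11a, and 13.9, 13.2 and 12.6 in siMENA. The siMENA libraries were clearly lowest (-0.51 ± 0.048, adjusted p = 2.66e-05), and the level in siMENA11a was 1.55-fold that in siMENA (0.64, adjusted p = 3.2e-06). The siMENA11a call against control was marginal for DDB2 (0.13, adjusted p = 0.0461), reversed without size factors to -0.0019 (adjusted p = 0.984), and was 0.21 with small and structured RNAs left out. It also ended without control library 1, 2 or 3, siMENA11a library 2 or 3 or siMENA library 2 (adjusted p 0.0610 to 0.145). XPC was at 8.27, 8.58 and 7.96 in control, 7.13, 6.16 and 7.03 in siMENA11a, and 9.07, 8.45 and 8.54 in siMENA. The siMENA11a libraries lay below the others in XPC (-0.27 ± 0.062, adjusted p = 0.00457), and the difference from siMENA was -0.34 (adjusted p = 0.00112), or -0.54 without size factors. POLK, a polymerase that copies past lesions, and RRM2B, a ribonucleotide reductase subunit, were not called. RRM2B was at 10.1 to 11.0 in the control libraries, 10.7 to 11.1 with siMENA11a and 11.1 to 11.6 with siMENA.

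The remaining 4 targets act in redox balance, metabolism and mRNA stability. SESN1, a sestrin that restrains mTORC1, was the target with the largest rise in siMENA11a. Its values were 1.27, 1.26 and 1.60 scaled TPM in control, 2.38, 2.33 and 2.77 in siMENA11a, and 2.22, 1.98 and 2.42 in siMENA. All 6 knockdown libraries were above all control libraries. SESN1 rose 1.60-fold in siMENA11a (log2 0.68 ± 0.11, adjusted p = 0.000571) and 1.44-fold in siMENA (0.53, adjusted p = 0.00291), with shared controls. The interval of the difference between the knockdowns was -0.10 to 0.39. At this low level the fold depends on the pseudocount, and with a pseudocount of 1 it was under 1.5 in siMENA11a.

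ZMAT3, a zinc finger protein that binds and destabilises mRNAs, had the largest fall in siMENA. It was at 3.34, 3.77 and 3.42 in control, 3.33, 3.74 and 3.98 in siMENA11a, and 1.78, 1.67 and 1.83 in siMENA. The siMENA libraries were far below the rest, 1.77-fold lower than control (-0.83 ± 0.082, adjusted p = 3.49e-05), while siMENA11a overlapped control (0.06, adjusted p = 0.563). TP53I3 was at 73.3, 75.9 and 57.7 in control, 68.8, 66.8 and 62.8 in siMENA11a, and 45.6, 52.1 and 47.6 in siMENA. All siMENA libraries were lowest (-0.50 ± 0.095, adjusted p = 0.00194), and control library 3 stood apart from the other control libraries. Without that library TP53I3 was also called lower in siMENA11a (-0.17, adjusted p = 0.0400), where with it the value was -0.05 (adjusted p = 0.672). The difference of 0.45 between the knockdowns in TP53I3 (adjusted p = 0.00264) was 0.23 without size factors (adjusted p = 0.0636). FDXR, the reductase that feeds electrons to mitochondrial ferredoxin, was at 2.89 to 3.84 over all libraries and was not called.

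Among the targets next to the limit of 1.5-fold, SESN1 (0.53), DDB2 (-0.51) and TP53I3 (-0.50) in siMENA, and PLK2 (0.54), CDKN1A (0.52) and MDM4 (-0.52) between the knockdowns fell short. The targets not called in any comparison were PPM1D, BBC3, TRIAP1, FAS, POLK, RRM2B and FDXR, 7 of 29. Of these, PPM1D, TRIAP1 and RRM2B passed the threshold in 1 or more comparisons under some of the alternatives. The share of all genes without a call in any comparison was not counted.

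Other genes of the pathway were followed in lists of known regulators, further targets and partners. For the counts below, the shares of all genes were 27.9% higher and 27.7% lower in siMENA11a and 23.7% higher and 25.8% lower in siMENA. Of 29 tested p53 regulators, 4 were higher and 6 lower in siMENA11a (median 0.01), and 7 higher and 8 lower in siMENA (median 0.02). The named examples fell: PRKDC, the DNA damage kinase, in siMENA11a (-0.48, adjusted p = 2.5e-06), and SETD7, a lysine methyltransferase (-0.62, adjusted p = 1.94e-05), and USP7, the deubiquitinase of MDM2 and p53 (-0.29, adjusted p = 5.57e-05), in siMENA. RPL5, a ribosomal protein that can hold MDM2, fell in both (-0.28 and -0.36, adjusted p = 0.000103 and 2.39e-05).

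Of 59 tested further p53 targets, 23 were higher and 20 lower in siMENA11a (median 0.04), and 17 higher and 21 lower in siMENA (median -0.05). All genes had 27.9% higher and 27.7% lower, and 23.7% higher and 25.8% lower. SESN2 and GDF15 are stress genes, and both differed between the knockdowns (siMENA11a against siMENA, 1.81 with adjusted p = 6e-06 and -0.84 with adjusted p = 4.73e-06). SESN2, the sestrin paralogue that also answers to amino acid stress, was at 1.23, 1.09 and 0.881 in control, 4.11, 4.71 and 5.30 in siMENA11a, and 0.729, 1.27 and 0.983 in siMENA. It rose 3.32-fold in siMENA11a (log2 1.73 ± 0.15, adjusted p = 1.17e-05) with no overlap, and siMENA overlapped control (-0.08, adjusted p = 0.691). GDF15, a secreted stress cytokine, was at 14.9, 13.2 and 14.6 in control, 15.5, 15.9 and 18.5 in siMENA11a, and 29.5, 31.0 and 30.1 in siMENA. Its rise in siMENA was large (1.06 ± 0.068, adjusted p = 2.39e-06). The smaller GDF15 call in siMENA11a (0.22, adjusted p = 0.0223) ended without size factors (0.09), without control library 2 (0.16, adjusted p = 0.0802) and without siMENA11a library 3 (0.14, adjusted p = 0.0618). ABHD4 (0.76), PRKAB2, a subunit of the energy sensor AMPK (0.83), and TRAF4 (0.47) rose in siMENA11a with adjusted p of 4.39e-07, 3.28e-06 and 2.53e-06. In siMENA PRKAB2 fell (-0.34, adjusted p = 0.00107), TRAF4 rose (0.19, adjusted p = 0.000947) and ABHD4 was at 0.07.

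Of 11 tested cyclins, cyclin-dependent kinases and PCNA, on which p21 acts, 0 were higher and 8 lower in siMENA11a (median -0.34). In siMENA 2 were higher and 8 lower (median -0.36). All genes had 27.9% higher and 27.7% lower in siMENA11a, and 23.7% and 25.8% in siMENA. The 2 higher in siMENA were CCNE1 (10.0 ± 0.828 in control, 16.7 ± 1.91 in siMENA) and CCNE2 (3.34 ± 0.274 and 4.22 ± 0.425). CDK2 fell in both knockdowns (-0.59 and -0.36, adjusted p = 4.58e-07 and 1.37e-05), as did CDK4 (-0.65 and -0.20, adjusted p = 1.18e-06 and 0.0024). CDK6, another G1 kinase, fell by 0.57 on the log2 scale in siMENA11a and by 1.37 in siMENA (adjusted p = 4.64e-07). CCNB1, the mitotic cyclin, fell in siMENA11a (-0.64, adjusted p = 1.16e-06) and was at -0.03 in siMENA (adjusted p = 0.546). CDK2, CDK4 and CDK6 were lower in siMENA, where CDKN1A was lower, and also in siMENA11a, where CDKN1A was higher. A link between CDKN1A and the levels of these kinases was not tested.

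Of 11 tested partners of the death receptors, 4 were higher and 5 lower in siMENA11a, and 0 higher and 6 lower in siMENA, where 27.7% and 25.8% of all genes were lower. CASP8, the initiator caspase, rose in siMENA11a (0.68, adjusted p = 3.3e-07) and fell in siMENA (-0.14, adjusted p = 0.00644). RIPK1, the kinase of the receptor complex, fell in siMENA11a by 0.70 on the log2 scale (adjusted p = 5.65e-07) and in siMENA by 0.12 (adjusted p = 0.0242). CFLAR, the inhibitor of CASP8, fell in both (-0.34 and -0.30, adjusted p = 8.9e-06 and 2.75e-05). TNFSF10, the TRAIL ligand itself, was at 6.09, 6.74 and 8.92 in control, 7.75, 7.76 and 7.06 in siMENA11a, and 4.99, 5.31 and 5.64 in siMENA, where it fell (-0.40, adjusted p = 0.0176). TNFRSF10C, a membrane-anchored decoy receptor, was low but higher in siMENA11a (1.70, 1.5 and 1.81, against 0.633, 0.932 and 0.481 in control, log2 0.89, adjusted p = 0.00372), and overlapped control in siMENA (-0.09, adjusted p = 0.720). On these values the decoy receptors had different patterns, with TNFRSF10C high in siMENA11a and TNFRSF10D high in siMENA. The split of shared reads among the TNFRSF10 genes is uncertain, and TNFRSF10C was not followed under the alternatives.

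**Figure D4:**
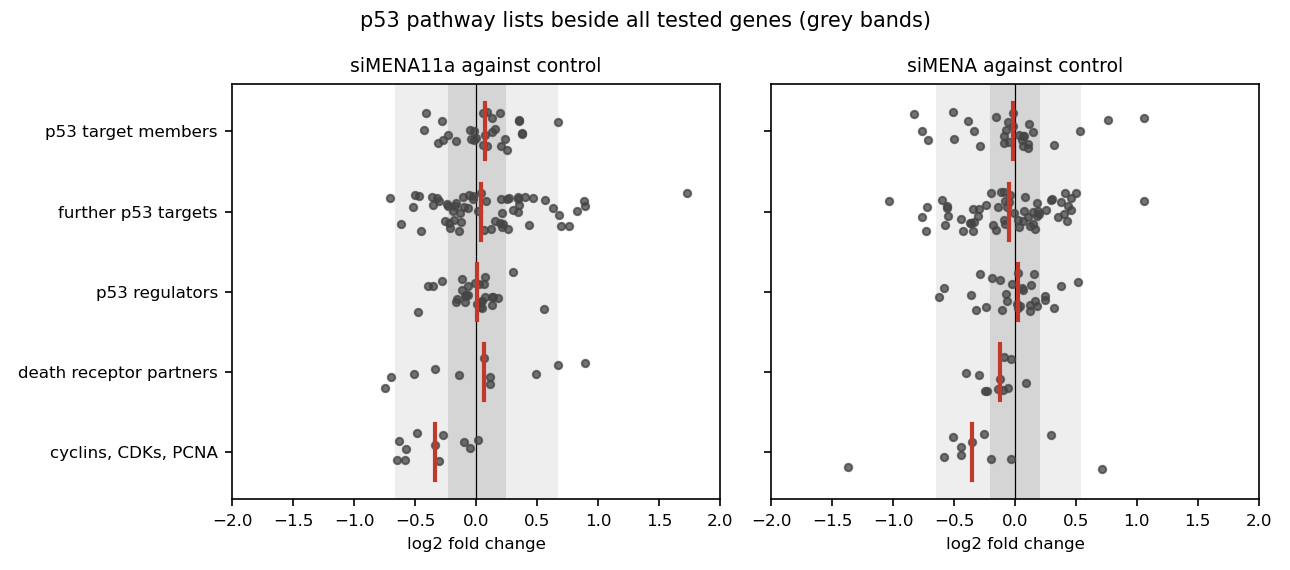
Log2 fold change of each tested gene in 5 lists (p53 targets, further p53 targets, p53 regulators, death receptor partners, and cyclins, CDKs and PCNA) for each knockdown against control; red bars are medians and grey bands hold the middle 50% and 90% of all 13498 genes. The cyclin list has medians of -0.34 and -0.36, and the medians of the other 4 lists lie between -0.12 and 0.07.

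siRNAs can lower transcripts that match their seed in the 3′ UTR, so the targets were searched for 7-base words linked to falls in these libraries. For siMENA11a the words were CAAGGAA with its overlapping neighbour CCAAGGA. For siMENA they were CAGAATA with its neighbour AGAATAA, and also CAGCGTA with its neighbour AGCGTAA. They came from an earlier analysis of the same data, which chose them because genes that carry them fell. They are therefore no independent evidence. In the longest 3′ UTR of GENCODE 29 (GRCh38), a siMENA11a word lay in 6 of 29 targets (20.7%) and in 2728 of 11315 tested genes with a 3′ UTR (24.1%). Of the 6 targets lower in siMENA11a, TNFRSF10B alone held one, beside 1 of the 7 higher and 4 of the 16 not called. A siMENA word lay in 7 of 29 targets (24.1%) and in 3199 of the 11315 genes (28.3%). Of the 9 targets lower in siMENA, AEN and ZMAT3 held one, beside 0 of the 4 higher and 5 of the 16 not called. A site of AEN and of ZMAT3 is shown because ZMAT3 had the largest fall, with the word in capitals.
AEN: catttgggttCAGAATAaacatgtcct
ZMAT3: tttaaattagAGAATAAaatgtaaaac
The AEN site shown starts at base 510 of a 3′ UTR of 1988 bases, in which the neighbour word also occurs at base 511 and again at base 1963, and the ZMAT3 word at base 7281 of 7794. GADD45A, PMAIP1, DDB2, TP53I3, PLK2, MDM2 and CDKN1A fell in siMENA and held none of the 4 words in these UTRs. The part of such matches in the results was not tested.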

How the data were processed

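The authors deposited 1 TPM value per gene and library, and each library sums to 1000000. Stranded paired-end libraries were made from rRNA-depleted total RNA, per the labels' protocols. kallisto and GRCh37 are listed per the submitters' processing notes, with no role. How reads were aligned and counted, strand included, is not given in the sources used here.

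Each library was divided by a size factor (median of ratios, 12341 genes at a mean TPM of 1 or more with no 0; geometric mean 1). The test used log2(scaled TPM + 0.5) of genes whose mean reached 0.5, a scale that understates the change of low genes. limma 3.58.1 in R 4.3.3 fitted 1 model of 3 groups (eBayes with a mean trend, two-sided, Benjamini-Hochberg over all 13498 genes). A call is an adjusted p under 0.05. The script was tested on simulated data. Means ± SD are over 3 libraries, and errors of log2 values are SE. The labels do not say that replicate numbers pair the libraries, and the model holds no replicate block. The r of same-numbered deviations was -0.065 to 0.058 over 9 pairs, which with 3 libraries a group does not exclude pairing.

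The 31 members and all lists were chosen with earlier results of these data known. Library values are given for members changed at least 1.5-fold or just short of it, MDM2, CDKN1A and the receptors. Library values of other called members were added after their values were seen. Of each further list, up to 4 genes with the smallest adjusted p are named, with SESN2 and GDF15. Some genes the rule names are not reported here. TNFSF10, TNFRSF10C, CCNE1 and CCNE2 were named after their values were seen. Alternatives were other scalings, pseudocounts, filters and fits, and leaving out each library.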

Additional observations from a re-analysis of the deposited data

How the results depend on the processing

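Of 87 member differences, 44 were called, and 30 of these kept their call under every alternative that could be run: 22 under all 20, and 8 that the filter at a mean of 5 leaves out. Another 17 differences were called under an alternative alone. On TPM as deposited, DDB2 in siMENA11a against control turned to -0.0019, and SERTAD1 in siMENA11a against siMENA to -0.18. The same scaling gave 3 members higher in siMENA11a against control (7 in the report), 7 higher in siMENA against control (4) and 6 higher in siMENA11a against siMENA (11). It gave 0 members at least 1.5-fold higher in siMENA11a against control (1) and 5 at least 1.5-fold lower in siMENA11a against siMENA (2). TPM rescaled without small and structured RNAs gave 11 higher in siMENA11a and 8 higher in siMENA against control. A pseudocount of 1 gave 0 members at least 1.5-fold higher in siMENA11a against control and 1 at least 1.5-fold lower in siMENA11a against siMENA. A filter at a mean of 5 keeps 20 members, so counts of at least 1.5-fold fell to 0 higher in siMENA11a, 1 higher and 1 lower in siMENA, and 2 higher and 1 lower in siMENA11a against siMENA. Leaving out 1 library moved that last count between 1 and 3. With the replicate block, 5 members were higher and 7 lower in siMENA11a against control. The block ended the calls of GADD45A (adjusted p = 0.0659) and DDB2 (0.0777) in that comparison and of PLK3 between the knockdowns (0.0716), and added CCNG2 (0.0330) and TRIAP1 (0.0447). In the check of pairing, 3 of 9 libraries correlated best with their own number. Causes of these shifts beyond the smaller number of genes were not tested. TPM keeps no depth, so counting error is unknown, and 3 libraries a group limit the precision.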
